A study of Mus musculus with 16 samples.

Results

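Mice on diets very poor in protein were compared at a high and a moderate fat content, and the hypothalamus was profiled by RNA sequencing. The comparison used 8 of the 16 libraries of the study, chosen by the diet on their labels: 4 at 60% fat (2 libraries at 1% protein and 2 at 2.5% protein) against 4 at 20% fat (2 at each of the same protein levels), with fat and protein as shares of dietary energy. All were from C57BL/6N mice, an inbred laboratory strain, and total RNA of the dissected hypothalamus was sequenced. The whole study crossed both fat levels with 4 protein levels (1%, 2.5%, 5% and 20%), 2 libraries to a diet. The labels give neither age nor sex. They do not state whether replicate libraries are from separate animals, so every p-value refers to the spread between libraries, which may be technical. At fixed low protein, a diet richer in fat is poorer in carbohydrate, and the fat and carbohydrate contents therefore cannot be told apart.

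The hypothalamus senses nutrients and hormones and sets food intake and energy use. Its arcuate nucleus holds neurons that make Npy and Agrp, which drive feeding, and neurons that make Pomc and Cartpt, which restrain it. Protein that is secreted or placed in membranes is folded in the endoplasmic reticulum by chaperones such as Hspa5 (BiP) and by enzymes that form disulfide bonds, and a separate set of heat shock proteins folds protein in the cytosol. Genes of the reticulum set are known to be switched together by the unfolded protein response, through factors such as Xbp1 and Atf6 that act on promoter elements shared by many of them, while Hsf1 acts on heat shock genes of the cytosol.

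The 8 libraries held 18275263 to 18511818 counts each. Levels are in CPM, which sets a gene's count against its library's TMM-corrected total, and where 4 values are listed for a fat level they are replicates 1 and 2 at 1% protein followed by replicates 1 and 2 at 2.5% protein. Hypothalamic markers were present in every library, among them Nkx2-1 (22.9 to 30.8 CPM), Otp (44.6 to 82.2) and Oxt (158 to 238). At 20% fat, both libraries numbered replicate 2 (1 at each protein level) carried markers of cortical and hippocampal neurons: Slc17a7, a glutamate transporter of such neurons, stood at 275 and 562 CPM there against 80.6 to 136 in the other 6, and Neurod6 at 11.9 and 25.9 against 0.844 to 4.22. Because both lie at 20% fat, results are given with all 8 libraries and with the 6 others. The mitochondrial genome took 1.54%, 1.61%, 2.45% and 2.98% of counts at 60% fat and 1.78%, 3.20%, 2.42% and 2.71% at 20% fat, which overlap (two-sided exact permutation p = 0.457, smallest possible 0.0286).

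No gene passed with all 8 libraries. Of 16318 genes in edgeR's quasi-likelihood test, fitted with protein level as a covariate, 0 had a Benjamini-Hochberg adjusted p under 0.05 (0%), 1407 had an unadjusted p under 0.05 (8.62%), and the smallest adjusted p was 0.375. DESeq2 called 16 genes, 13 of them higher at 60% fat, and edgeR's likelihood ratio test called 29, 18 of them higher. Without the cortex-marker libraries the quasi-likelihood test called 10 of 16567 genes (0.0604%), of which 4 rose (0.0241%) and 6 fell (0.0362%) at 60% fat. Of those that fell, Cacng7, Coro1b, Bpifa1 and Ppp1ca had counts at or near 0 in every 60% fat library. They passed the low-count filter only through counts at 20% fat, so their calls are not read as a difference between fat levels. No gene was called when at least 1 CPM was required in at least 4 libraries. In that comparison 1555 genes had an unadjusted p under 0.05 (9.39%). Leaving out 1 of these 6 libraries in turn gave 1 to 22 calls. Every difference described as higher or lower rather than as a rise or fall did not pass.

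Chaperones of the endoplasmic reticulum stood higher at 60% fat in most libraries. All 8 genes of this group on the list were measured: Hspa5, which encodes the chaperone BiP, Hsp90b1 (Grp94, its partner of the Hsp90 family), Calr (calreticulin, a chaperone of glycoproteins), Pdia4 and Pdia6 (disulfide isomerases), and Sdf2l1, Creld2 and Manf (small proteins of the reticulum that are induced in the unfolded protein response). Of the 24 heat shock and chaperone genes on the whole list, 19 had an entry in the RefSeq promoter table (build GRCm38.p6). The endoplasmic reticulum stress element was searched as CCAAT followed by CCACG after 9 bases of any kind, on both strands of the 250 bases before the start. It was found in 5 of these 19 genes, all of the reticulum group, against 0.13% of 27025 genes with a promoter entry. Such shared elements are already known for this group, so the matches were no test. These 5 promoters are printed because their genes belong to the group whose values follow, and capitals mark the element. They are read 5′ to 3′ on the strand of the gene and end at the base before the RefSeq start: Hspa5 at chr2:34771840-34772089 (plus strand), Hsp90b1 at chr10:86705445-86705694 (minus), Pdia6 at chr12:17266339-17266588 (plus), Calr at chr8:84846932-84847181 (minus) and Creld2 at chr15:88819396-88819645 (plus).
Hspa5: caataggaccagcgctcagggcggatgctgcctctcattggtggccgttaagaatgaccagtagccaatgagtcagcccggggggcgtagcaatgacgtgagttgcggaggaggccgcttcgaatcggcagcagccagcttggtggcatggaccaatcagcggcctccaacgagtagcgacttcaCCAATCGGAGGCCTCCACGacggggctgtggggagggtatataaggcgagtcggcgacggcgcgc
Hsp90b1: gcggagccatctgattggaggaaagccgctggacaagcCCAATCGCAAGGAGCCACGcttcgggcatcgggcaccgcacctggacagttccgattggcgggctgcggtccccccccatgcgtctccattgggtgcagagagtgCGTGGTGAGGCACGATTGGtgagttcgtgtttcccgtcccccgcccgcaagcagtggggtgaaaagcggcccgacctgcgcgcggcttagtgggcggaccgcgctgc
Pdia6: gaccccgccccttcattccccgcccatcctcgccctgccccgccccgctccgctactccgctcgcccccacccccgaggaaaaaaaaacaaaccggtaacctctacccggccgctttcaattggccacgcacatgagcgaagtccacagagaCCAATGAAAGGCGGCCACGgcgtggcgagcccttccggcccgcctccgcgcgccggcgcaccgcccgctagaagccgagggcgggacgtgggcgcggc
Calr: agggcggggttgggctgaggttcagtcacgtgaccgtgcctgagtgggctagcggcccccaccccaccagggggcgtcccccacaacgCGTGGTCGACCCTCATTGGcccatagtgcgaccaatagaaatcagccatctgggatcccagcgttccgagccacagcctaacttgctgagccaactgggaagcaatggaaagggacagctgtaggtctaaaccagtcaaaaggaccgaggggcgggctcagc
Creld2: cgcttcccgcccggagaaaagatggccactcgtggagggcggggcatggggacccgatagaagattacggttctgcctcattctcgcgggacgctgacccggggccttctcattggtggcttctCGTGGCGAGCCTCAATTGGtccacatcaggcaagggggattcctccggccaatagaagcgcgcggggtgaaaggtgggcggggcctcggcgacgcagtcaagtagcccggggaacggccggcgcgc
The Hsp90b1 promoter held 2 copies, the second of them in the reverse direction, and the other 4 held 1 copy, in the reverse direction in Calr and Creld2. In Hspa5 the element ended 46 bases before the start. Pdia4 and Sdf2l1 held no match in this window, and a match describes the letters only.

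Pdia4 stood at 51.8, 50.5, 54.9 and 55.6 CPM at 60% fat and at 40.1, 38.5, 42.2 and 44.1 CPM at 20% fat. Every library at 60% fat lay above every library at 20% fat. The log2 difference was 0.37 ± 0.06 (SE), a ratio of 1.29, with an adjusted p of 0.375 in edgeR's quasi-likelihood test, and it was 0.37 (adjusted p = 0.0601) without the cortex-marker libraries. Sdf2l1 stood at 19.7, 17.0, 19.4 and 21.2 CPM against 13.5, 10.4, 12.2 and 15.7 CPM, again without overlap, with a log2 difference of 0.58 ± 0.12 (adjusted p = 0.53, edgeR's quasi-likelihood test). It was the largest difference of the group. Calr, at 519, 508, 554 and 510 CPM against 434, 372, 421 and 484 CPM, differed by 0.29 ± 0.07. Creld2, at 22.4, 23.6, 25.8 and 25.7 CPM against 19.1, 17.2, 21.4 and 20.1 CPM, differed by 0.33 ± 0.07. In both genes the groups did not overlap. Manf averaged 55.4 ± 1.99 against 46.8 ± 2.69 CPM (SD, n = 4 each) and Pdia6 154 ± 5.89 against 138 ± 5.41 CPM, and neither overlapped. The counted span of Manf overlaps Dcaf1 and Rbm15b, and that of Pdia6 overlaps Atp6v1c2, so their counts are uncertain to that extent.

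Hspa5 stood at 369, 356, 429 and 441 CPM at 60% fat against 339, 341, 343 and 364 CPM at 20% fat. The higher cortex-marker library, at 364, lay above replicate 2 of 60% fat with 1% protein, at 356, and there was no overlap without it. The log2 difference of Hspa5 was 0.19 ± 0.06. Hsp90b1 was the exception in the group, at 101, 99.9, 148 and 175 CPM against 109, 148, 137 and 144 CPM. It was lower at 60% fat at 1% protein (-0.36 ± 0.14) and higher at 2.5% protein (0.21 ± 0.14), and the difference between these effects had an unadjusted p of 0.0166 and an adjusted p of 0.622 in edgeR's quasi-likelihood test. Over both levels its difference was -0.07 ± 0.13 with all 8 libraries and 0.07 ± 0.08 without the cortex-marker libraries.

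Cytosolic and mitochondrial chaperones split. Among the 16 genes outside the reticulum group, those without overlap were Hspa8 (the constitutive Hsc70), Hsp90ab1 (the constitutive Hsp90), Hspb1 (a small heat shock protein) and Stip1 (which links Hsp70 to Hsp90). Hspa8 stood at 572, 604, 608 and 580 CPM against 514, 505, 527 and 515 CPM, a log2 difference of 0.20 ± 0.05. Hsp90ab1 averaged 1964 ± 102 against 1730 ± 91.6 CPM (SD, n = 4 each), and Stip1 329 ± 15.2 against 281 ± 9.29 CPM. Hspb1, at 4.84, 5.01, 5.52 and 6.03 CPM against 3.43, 3.85, 3.93 and 4.13 CPM, had the largest log2 difference of these genes, 0.48 ± 0.11. Hsph1, a nucleotide exchange factor for Hsp70, stood at 271, 263, 354 and 338 CPM against 217, 244, 275 and 304 CPM, so that the groups overlapped between protein levels and not within them. It rose in the comparison without the cortex-marker libraries (log2 0.31 ± 0.04, adjusted p = 0.0379, edgeR's quasi-likelihood test). Bag3, a co-chaperone of selective autophagy, differed by 0.19 ± 0.08, also without overlap within either protein level.

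Stress-inducible and heat shock factor genes showed smaller or mixed values. Hspa1a and Hspa1b, the inducible Hsp70 genes, which are near-identical copies whose reads can be split, differed by 0.16 ± 0.24 and 0.26 ± 0.23, and Hsf1, the heat shock transcription factor, by 0.12 ± 0.06. Dnajb1, a J-domain partner of Hsp70, differed by 0.10 ± 0.06, and the mitochondrial chaperonins Hspd1 and Hspe1, which overlap each other, by 0.05 ± 0.07 and 0.05 ± 0.09. The heat shock element was searched on both strands as GAA, TTC and GAA with 2 bases of any kind between them. It was found before 2 of the 19 list genes with a promoter entry, Hspe1 and Hspd1, against 0.514% of all genes with an entry. These genes face away from each other around a shared region, and both matches are the same stretch read on opposite strands. Hspa1a, Hspa1b, Dnajb1 and Hsph1 held no match. Hsp90aa1 (the inducible Hsp90), Hspa4l, Dnaja1 and Dnajb5 had negative differences (-0.13 ± 0.16, -0.12 ± 0.19, -0.05 ± 0.09 and -0.11 ± 0.10) with all 8 libraries. These values turned to 0.04, 0.05, 0.006 and 0.05 without the cortex-marker libraries, all within their spread. Hsp90aa1 stood at 182, 193, 306 and 365 CPM at 60% fat against 215, 314, 276 and 296 CPM at 20% fat. At 1% protein both 60% fat libraries lay below both 20% fat libraries, and at 2.5% protein they lay above them. The difference between the effects at 1% and 2.5% protein was -0.73 ± 0.22 for Hsp90aa1 (unadjusted p = 0.00894, adjusted p = 0.622), -0.76 ± 0.29 for Hspa4l and -0.36 ± 0.14 for Dnaja1 in edgeR's quasi-likelihood test. The size of these differences varied with the libraries kept for the 20% fat diet with 1% protein. At 60% fat Hsp90aa1 also stood lower with 1% protein (182 and 193 CPM) than with 2.5% protein (306 and 365 CPM). Replicate 2 of 20% fat with 1% protein is a cortex-marker library. The replicates of that diet differed in mitochondrial share (1.78% and 3.20%). They also differed in the rank correlation across genes of a gene's deviation from its mean level with its length (-0.29 and 0.19). Without replicate 2 of that diet the values were -0.43, -0.36 and -0.21, all still negative. Without its replicate 1, so that only the cortex-marker library stood for that diet, they were -0.98, -1.07 and -0.49 and passed (adjusted p = 0.00939, 0.0117 and 0.018, edgeR's quasi-likelihood test).

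Over the whole list of 24 genes, 19 had a positive difference with all 8 libraries and 23 without the cortex-marker libraries, and 10 had all 4 libraries at 60% fat above all 4 at 20% fat, where 2.24% of all genes tested did, and none had the opposite, which 2.02% of all genes did. Within both protein levels taken separately, 14 of 24 stood higher without overlap, against 5.59% of all genes, and none lower, against 4.12%. An unadjusted p under 0.05 with a higher level at 60% fat was reached by 13 of 24, against 4.09% of all genes, and by none in the other direction. The median log2 difference of the list was 0.18 and that of all genes -0.006. In the reticulum group 7 of 8 had an unadjusted p under 0.05, which 8.62% of all genes had in either direction, and the median was 0.27. In the other 16 genes 6 did and the median was 0.14. Without the cortex-marker libraries the count was again 13 of 24 (against 5.13% of all genes), with a median of 0.17. At 1% protein alone, with all 8 libraries fitted, 10 of 24 were higher and 4 lower at an unadjusted p under 0.05. Of all genes 16.3% reached that level there in either direction. At 2.5% protein alone 10 were higher and none lower (3.47% of all genes in either direction). The summed level of the list ran from 5259 to 5729 CPM at 60% fat and from 4756 to 5135 CPM at 20% fat, or 4790 to 4916 CPM without the cortex-marker libraries. The list was chosen with results of these data known, and none of its genes passed with all 8 libraries (adjusted p = 0.375 to 0.874, edgeR's quasi-likelihood test).

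**Figure D1:**
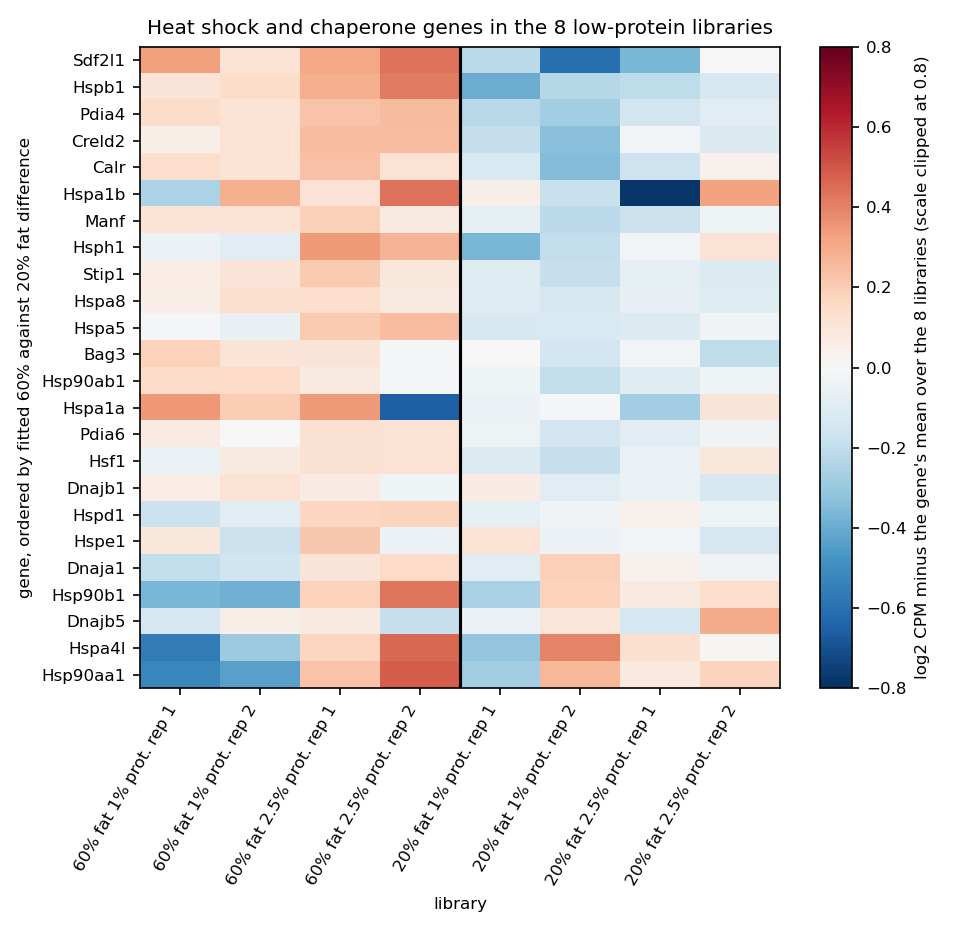
Each row is a heat shock or chaperone gene and each column a library; colour is log2 CPM minus the gene's mean over the 8 libraries, with 60% fat left of the black line. Most rows are red on the left and blue on the right, while Hsp90aa1, Hspa4l, Hsp90b1 and Dnaja1 near the bottom are low in both 60% fat libraries with 1% protein.

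The same genes were then set beside the fat difference at 5% and 20% protein. There edgeR's quasi-likelihood test called 0 of 16646 genes, 258 had an unadjusted p under 0.05 (1.55%), and DESeq2 and the likelihood ratio test also called 0. The median of the chaperone list was -0.03 and 11 of 24 genes had a positive difference. Pdia4 had -0.06 and Sdf2l1 -0.12. The difference between the fat effects at low and at higher protein was 0.70 ± 0.17 for Sdf2l1 and 0.42 ± 0.11 for Pdia4 (unadjusted p = 0.00124 and 0.00222, adjusted p = 0.984 each). It had an unadjusted p under 0.05 with a larger effect at low protein in 11 of 24 list genes, against 1.91% of all genes. No gene passed this test after adjustment (632, or 3.8%, had an unadjusted p under 0.05, and DESeq2 and the likelihood ratio test called 0).

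The higher-protein libraries also place the levels. Pdia4 ran from 46.1 to 58.9 CPM at 60% fat and from 44.6 to 61.6 CPM at 20% fat in the 8 libraries at 5% and 20% protein. All 4 low-protein libraries at 20% fat lay below that range, and all 4 at 60% fat lay inside it. Sdf2l1 ran from 16.02 to 23.3 CPM in those 8 libraries, again above the 10.4 to 15.7 CPM of low protein at 20% fat. These ranges describe genes that were picked after their values were seen.

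**Figure D2:**
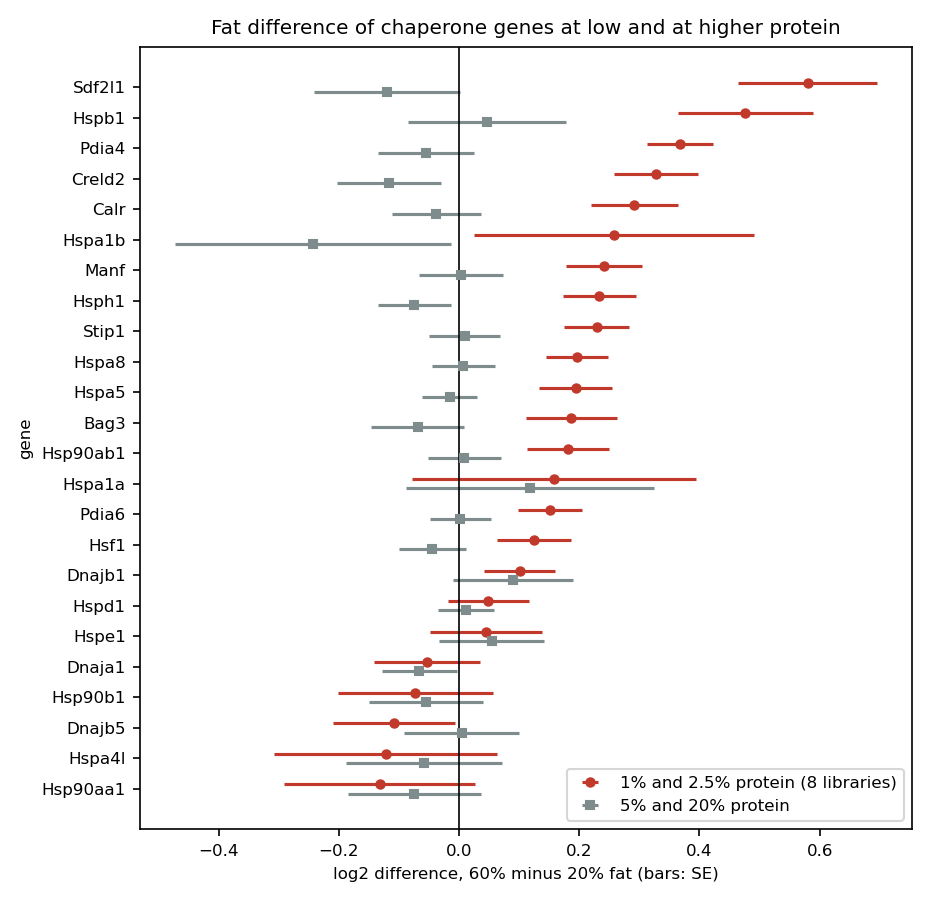
Points are the fitted log2 differences, 60% minus 20% fat, of the 24 chaperone genes with their standard errors, in red for 1% and 2.5% protein and in grey for 5% and 20% protein. Red points lie above 0 for 19 genes and grey points for 11.

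Xbp1 and P4ha1, which are not on the list, were among the genes of smallest p. Xbp1, the transcription factor of the unfolded protein response, stood at 143, 135, 139 and 132 CPM against 120, 105, 106 and 112 CPM, without overlap and with a log2 difference of 0.31 ± 0.06. P4ha1, a collagen prolyl hydroxylase of the reticulum, stood at 49.0, 54.7, 63.9 and 57.5 CPM against 41.0, 41.3, 43.7 and 46.2 CPM (0.38 ± 0.07). The groups did not overlap for it either. Both were called by DESeq2 and by the likelihood ratio test and by no other alternative with all 8 libraries, and the same holds for Pdia4 and Sdf2l1.

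In the comparison without the cortex-marker libraries, Cryab, Apln, Hsph1 and Gja1 rose at 60% fat in the main test. None of the 10 genes called there passed when at least 1 CPM was required in at least 4 libraries. The adjustment ranked the low-count genes Cacng7 and Ppp1ca ahead of the others (unadjusted p = 1.28e-09 and 8.7e-07, edgeR's quasi-likelihood test). The adjusted p of the other called genes therefore depended in part on these low-count genes. Cryab, a small heat shock protein abundant in oligodendrocytes and astrocytes, stood at 148, 173, 171 and 174 CPM at 60% fat and at 98.3, 80.0, 128 and 160 CPM at 20% fat, where 80.0 and 160 are the cortex-marker libraries. Only the 160 reached into the 60% fat group. The log2 change was 0.57 ± 0.08 (adjusted p = 0.0379, edgeR's quasi-likelihood test), and it was 0.55 when all 8 libraries entered. Its span on chromosome 9 (50751325 to 50756636, GRCm38) overlaps Hspb2, so its counts are uncertain to that extent. Apln, the peptide ligand of the apelin receptor, lies on chromosome X (48025146 to 48034853) and stood at 34.0, 34.7, 44.0 and 40.9 CPM against 25.5, 27.2, 29.8 and 31.2 CPM. No library overlapped, and the change was 0.47 ± 0.07 (adjusted p = 0.0382, edgeR's quasi-likelihood test) without the cortex-marker libraries and 0.43 (0.375) with them. Gja1, the gap junction protein connexin 43 of astrocytes, on chromosome 10 (56377330 to 56402513), stood at 210, 210, 221 and 222 CPM against 171, 184, 180 and 182 CPM. No library overlapped here either, and the change was 0.30 ± 0.04 (adjusted p = 0.0382, edgeR's quasi-likelihood test).

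Etnppl and Cirbp fell in the same comparison. Etnppl, a phospholyase of phosphoethanolamine found in astrocytes, stood at 144, 146, 105 and 106 CPM at 60% fat against 184, 194, 140 and 102 CPM at 20% fat. Its 102 came from a cortex-marker library, and without these libraries it changed by -0.37 ± 0.05 (adjusted p = 0.0215, edgeR's quasi-likelihood test). Cirbp, the cold-inducible RNA-binding protein, stood at 182, 156, 98.0 and 104 CPM against 223, 136, 143 and 122 CPM. It changed by -0.45 ± 0.06 (adjusted p = 0.0379, edgeR's quasi-likelihood test) without the cortex-marker libraries and by -0.24 ± 0.14 (0.614) with them, and at 1% protein the 136 of the cortex-marker library lay below both 60% fat libraries. Each of these 6 genes passed in 6 or 7 of 15 alternatives, kept its direction in all 15, and did not pass when either remaining 20% fat library or either 60% fat library with 2.5% protein was left out.

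The other 4 genes called in that direction had most of their counts in 1 or 2 libraries. Cacng7 had 83 and 90 counts in the 20% fat libraries numbered replicate 1 and 0 to 2 in the other 6 libraries. Coro1b had 63 counts in the first of these libraries (1% protein) and 0 to 2 elsewhere, Bpifa1 had 55 in the other (2.5% protein) and 0 to 15 elsewhere, and Ppp1ca had 5.59 CPM in that same library and 0 to 0.109 CPM in the other 7. Such counts are at or near 0 in whole groups, so their fitted fold changes are not given. The counted span of Coro1b overlaps Ptprcap and Rps6kb2, and that of Ppp1ca overlaps Rad9a, so the counts of both are uncertain to that extent. In that comparison each 20% fat diet had 1 library, so the low-count filter, which groups libraries by diet, kept genes counted in a single library. Coro1b and Ppp1ca did not pass the filter with all 8 libraries and were not tested there. Coro1b, Bpifa1 and Ppp1ca were named after their values were seen.

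**Figure D3:**
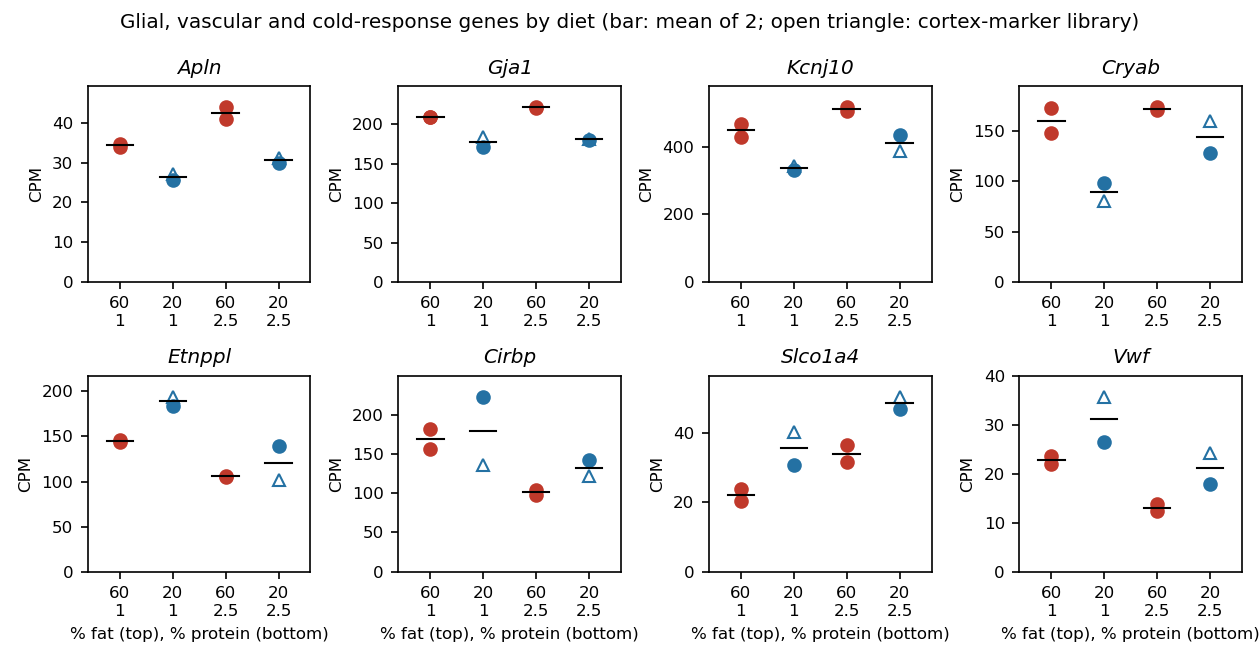
Each panel gives the CPM of 1 gene in the 8 libraries by diet, in red for 60% and blue for 20% fat; bars are means of 2 libraries and open triangles are the cortex-marker libraries. Apln, Gja1, Kcnj10 and Cryab stand higher and Slco1a4 and Vwf lower at 60% fat at each protein level, and all axes start at 0.

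Glial and vascular genes were among those of smallest p with all 8 libraries, although none passed. Kcnj10, the potassium channel Kir4.1 of glia, stood at 429, 467, 517 and 506 CPM against 331, 344, 436 and 388 CPM, with a log2 difference of 0.36 ± 0.06 and no overlap within a protein level. Of 16 astrocyte genes measured, 4 had an unadjusted p under 0.05 and stood higher (Gja1, Ntsr2, Slc6a11 and Fabp7), where 4.09% of all genes did, and none lower (4.53%), with a median of 0.10. Gfap, the classical astrocyte marker, was listed at 0 in every library. The reason was not tested, and the value is not read as absent expression. Of 18 oligodendrocyte genes, 8 were higher at that level (4.09% of all genes) and none lower (median 0.17), among them Olig1 (398 ± 29.4 against 329 ± 29.1 CPM, SD, n = 4 each), Olig2, Mbp and Cnp. Mog, a myelin surface protein, stood at 107, 108, 104 and 106 CPM against 98.8, 76.1, 98.8 and 98.1 CPM, so its groups did not overlap and the lowest value was from a cortex-marker library. In bulk tissue, more cells of a type and more RNA per cell cannot be told apart.

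Endothelial genes pointed the other way in part. Slco1a4, an organic anion transporter of the blood-brain barrier, stood at 20.4, 24.0, 31.6 and 36.5 CPM at 60% fat against 30.8, 40.4, 47.0 and 50.5 CPM at 20% fat. At each protein level the groups did not overlap, and the log2 difference was -0.60 ± 0.10 with all 8 libraries and -0.47 ± 0.08 without the cortex-marker libraries (adjusted p = 0.49 and 0.128, edgeR's quasi-likelihood test). Vwf, the von Willebrand factor of endothelial cells, stood at 23.6, 22.0, 12.5 and 13.7 CPM against 26.6, 35.7, 18.02 and 24.3 CPM, with -0.57 ± 0.13. It too did not overlap within a protein level. Of 13 endothelial genes, Slco1a4, Vwf and Abcb1a (P-glycoprotein) were lower with an unadjusted p under 0.05 (4.53% of all genes), and Slc16a1, a monocarboxylate transporter, was higher (4.09%), with a median of -0.12. Without the cortex-marker libraries 2 were lower at that level (4.26% of all genes) and none higher (5.13%), and the median was -0.02. The summed endothelial level ran from 357.6 to 381.5 CPM at 60% fat and from 363.7 to 445.4 CPM at 20% fat, the highest value being a cortex-marker library.

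Markers of regions next to the hypothalamus differed between libraries, and none of these genes passed with all 8. Of 12 thalamic genes, 9 stood higher at 60% fat with an unadjusted p under 0.05 (4.09% of all genes did), with a median of 0.37, such as Prkcd (283 ± 59.1 against 204 ± 71.5 CPM, SD, n = 4 each) and Tcf7l2 (125 ± 17.4 against 96.0 ± 24.4 CPM). Without the cortex-marker libraries 7 did (against 5.13%), and the median was 0.24. The summed thalamic level ran from 1314 to 1652 CPM at 60% fat and from 903.6 to 1359 CPM at 20% fat. Striatal genes were high in replicate 2 of 60% fat with 1% protein, whose summed level of 1299 CPM compares with 720.1 to 910.2 CPM in the other 7. Of 25 cortical and hippocampal genes, 7 stood lower with an unadjusted p under 0.05 (4.53% of all genes did) and the median was -0.57. Without the cortex-marker libraries 1 was lower (4.26% of all genes), 4 were higher (5.13%) and the median was 0.13. The choroid plexus list summed to 283.9 to 352 CPM at 60% fat and 231.9 to 493.8 CPM at 20% fat, with 493.8 and 489.3 in the cortex-marker libraries. The part of these tissue markers in the differences of other genes was not tested beyond leaving those 2 libraries out and fitting the cortical level as a covariate.

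**Figure D4:**
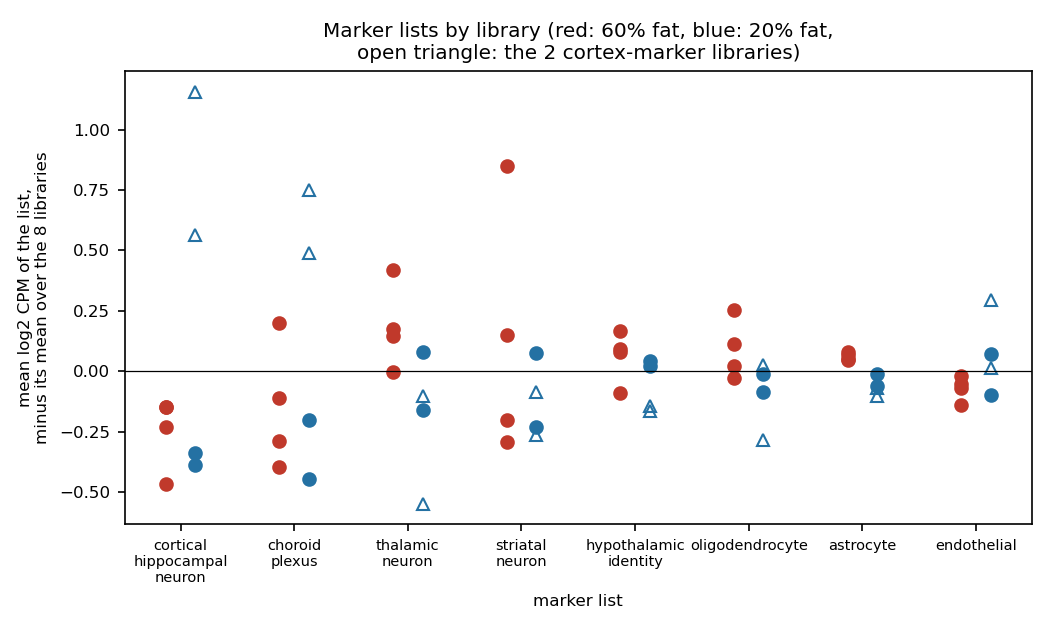
Each point is a library's mean log2 CPM over a marker list, minus the mean over the 8 libraries, in red for 60% and blue for 20% fat. The 2 cortex-marker libraries, drawn as open triangles, stand apart in the cortical and choroid plexus lists, and replicate 2 of 60% fat with 1% protein in the striatal list.

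Among genes of the melanocortin system, Npy stood at 57.0, 57.9, 26.1 and 25.3 CPM at 60% fat and at 86.3, 120, 28.5 and 44.3 CPM at 20% fat. Within each protein level every 60% fat library lay below every 20% fat library, and at 20% fat the higher value of each pair was the cortex-marker library. The log2 difference was -0.68 ± 0.15 with all 8 libraries and -0.40 ± 0.09 without those libraries (adjusted p = 0.53 and 0.209, edgeR's quasi-likelihood test). It did not pass, although DESeq2 and the likelihood ratio test called it with all 8. Agrp, made by the same neurons, stood at 7.09, 6.41, 6.38 and 5.48 CPM against 5.91, 8.35, 5.38 and 4.84 CPM, and its difference of 0.06 ± 0.14 was within the spread. The counted span of Agrp overlaps other coding genes. At 5% and 20% protein Npy ran from 13.5 to 26.5 CPM, and its fat difference there was 0.03.

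Pomc, whose product is cut to the melanocortin that restrains feeding, gave unlike values at 1% and 2.5% protein. It stood at 13.7 and 11.5 CPM at 60% fat against 13.7 and 11.8 CPM at 20% fat with 1% protein. With 2.5% protein it stood at 35.4 and 29.6 CPM against 18.7 and 17.2 CPM. The effects were -0.02 ± 0.15 and 0.86 ± 0.14. Their difference of -0.88 ± 0.20 had an unadjusted p of 0.00158 and an adjusted p of 0.622 in edgeR's quasi-likelihood test, so it did not pass. The effect at 2.5% protein did not pass in that test either. It passed in 2 of 15 alternatives, DESeq2 and the likelihood ratio test. In the 8 libraries at 5% and 20% protein Pomc ran from 31.4 to 58.3 CPM, a range that holds the 35.4 of 60% fat at 2.5% protein and lies above the 29.6 and above both 20% fat values.

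Other peptide genes gave smaller or less even values. Vip, a peptide of the suprachiasmatic clock neurons among others, stood at 4.50, 2.47, 7.25 and 7.16 CPM against 7.46, 7.32, 8.12 and 13.8 CPM, without overlap. The 7.32 and 13.8 came from the cortex-marker libraries. Its log2 difference was -0.82 ± 0.21 (-0.59 ± 0.22 without those libraries). Tac1, the substance P precursor, stood at 62.4, 57.9, 61.7 and 63.3 CPM against 54.4, 49.3, 56.5 and 51.0 CPM, also without overlap, and differed by 0.22 ± 0.06. Tac1 is also expressed in the striatum. Cartpt, a satiety peptide, differed by 0.22 ± 0.09 with overlap, Hcrt, the orexin precursor of the lateral hypothalamus, by 0.28 ± 0.18 and Pmch, the melanin-concentrating hormone gene, by 0.09 ± 0.12. Hcrt was at 101 and 113 CPM in the cortex-marker libraries and at 164 to 195 CPM in the other 6, and its difference without them was -0.05 ± 0.07.

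**Figure D5:**
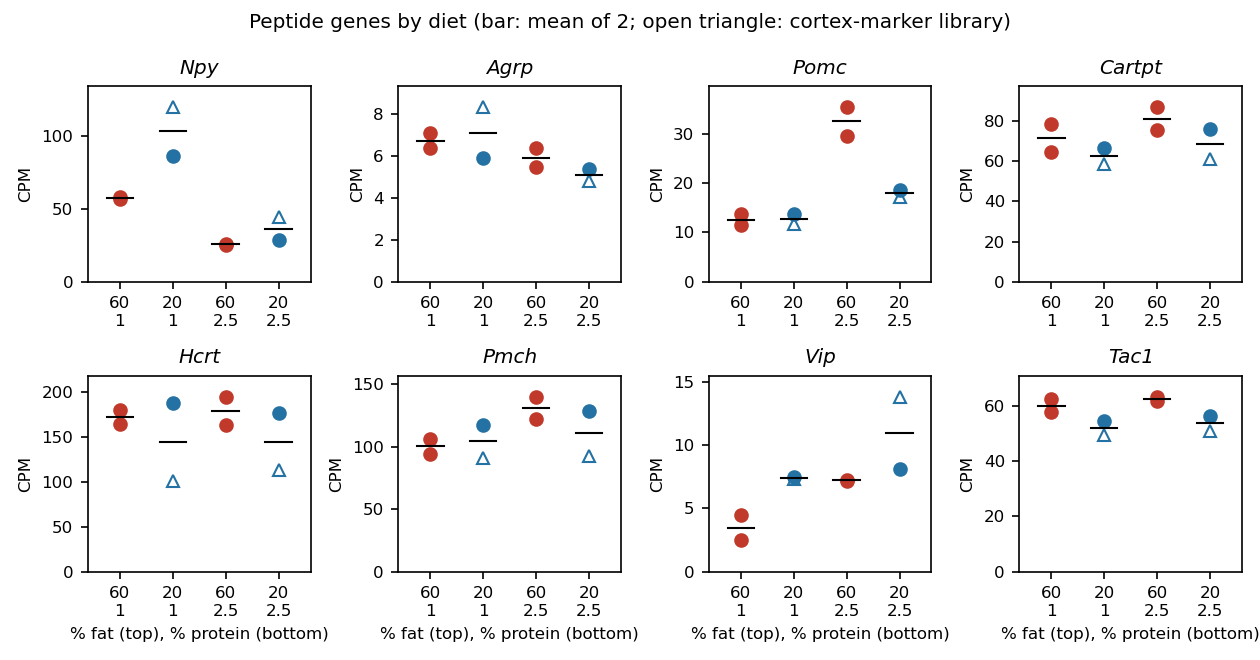
Each panel gives the CPM of 1 peptide gene in the 8 libraries by diet, in red for 60% and blue for 20% fat; bars are means of 2 libraries, open triangles are the cortex-marker libraries and all axes start at 0. Npy is lower at 60% fat at each protein level, Pomc is higher at 60% fat at 2.5% protein only, and Hcrt is low in both open triangles.

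Of 26 appetite receptor genes measured, 4 were lower at 60% fat with an unadjusted p under 0.05, against 4.53% of all genes, and 1 was higher (4.09%). The tally turned to 1 lower (4.26%) and 2 higher (5.13%) without the cortex-marker libraries. The 4 were Cnr1 (the cannabinoid receptor, -0.28 ± 0.08), Npy2r (-0.24 ± 0.08), Ghsr (the ghrelin receptor, -0.31 ± 0.12) and Gipr (-0.35 ± 0.13), and Ramp3, a subunit of amylin receptors that also marks the thalamus, was at 0.55 ± 0.12. Cnr1 alone of these 4, without those libraries, stayed under that level, at -0.15 ± 0.05, and Npy2r, Ghsr and Gipr stood at -0.17 ± 0.09, -0.26 ± 0.13 and -0.32 ± 0.16. Npy2r alone of the 4 did not overlap between the groups of 4. Lepr, the leptin receptor, and Socs3, which inhibits its signalling, differed by -0.37 ± 0.28 and -0.19 ± 0.15. Of 50 genes of the mTOR pathway, Prr5l (0.28 ± 0.08) was higher and Fnip1 (-0.38 ± 0.16) lower with an unadjusted p under 0.05, fewer than the 4.09% and 4.53% of all genes, and the median was 0.02. Fnip1 stood at -0.17 ± 0.10 without the cortex-marker libraries. Mtor, the kinase itself, stood at 181, 182, 162 and 161 CPM against 171, 162, 168 and 162 CPM (0.05 ± 0.06), so its fat groups overlapped. Of 38 genes of the amino acid response, Phgdh, Mthfd2 and Pycr1 were higher at that level (4.09% of all genes) and none lower, with a median of 0.07, and none of these 3 reached it without the cortex-marker libraries.

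No lipid gene of the lists passed. Of 22 genes of fatty acid synthesis, 5 were higher with an unadjusted p under 0.05 (4.09% of all genes were) and none lower (median 0.06): the desaturases Scd1, Scd2 and Fads1, the elongase Elovl5 and the malic enzyme Me1. Leaving out the cortex-marker libraries gave 5 higher (against 5.13%) and 2 lower (4.26%), with a median of 0.03. Elovl5 stood at 102, 103, 107 and 99.2 CPM against 84.0, 80.0, 98.8 and 90.5 CPM, a log2 difference of 0.22 ± 0.06. The groups came close without overlapping. The lowest value of Elovl5, Scd1 and Scd2 was that of the cortex-marker library with 1% protein. In cholesterol metabolism, 1 of 24 genes was higher (4.09% of all genes were) and 1 lower (4.53%) at that level (median 0.009). Without the cortex-marker libraries 5 were lower (4.26% of all genes were) and none higher (median -0.06). Among these 5 was Insig1 (a sterol sensor partner, -0.25).

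Glucocorticoid response genes leaned lower at 60% fat, with 5 of 26 lower at an unadjusted p under 0.05 (4.53% of all genes were), none higher and a median of -0.13. They were Sult1a1 (-0.51 ± 0.16), Map3k6, Cebpd, Lcn2 and Nr3c2, the mineralocorticoid receptor (-0.32 ± 0.11). Without the cortex-marker libraries only Sult1a1 remained at that level (4.26% of all genes), and the median was -0.09. The highest Lcn2 value came from the cortex-marker library with 1% protein. Of 20 immediate early genes, which mark recent neuronal activity, 1 was higher (4.09% of all genes) and 1 lower (4.53%) with all 8 libraries (median -0.12). Without the cortex-marker libraries 8 were higher (5.13% of all genes) and none lower (median 0.21), so their direction rested on those libraries.

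Further genes named by smallest p, none of which passed, included Tnfrsf12a, the TWEAK receptor (13.1 ± 1.63 against 8.67 ± 0.921 CPM, SD, n = 4 each), Rgs16, a regulator of G protein signalling (11.2 ± 1.88 against 6.86 ± 1.14 CPM), and Fhdc1 (29.5 ± 1.54 against 22.3 ± 1.85 CPM), all higher at 60% fat without overlap. Lower without overlap were Aox1, an aldehyde oxidase (9.99 ± 0.347 against 13.99 ± 1.6 CPM), Med12, of the Mediator complex (34.1 ± 1.59 against 42.2 ± 1.35 CPM), Izumo4 (35.7 ± 2.03 against 43.3 ± 1.9 CPM) and Figf, the growth factor VEGF-D (2.55 ± 0.262 against 3.92 ± 0.311 CPM). Opn3 (0.55 ± 0.12), an opsin whose span overlaps another coding gene, was higher. Tfrc, the transferrin receptor, Gli1, a target of hedgehog signalling, and Timm44, of mitochondrial protein import, were lower without overlap (-0.28 ± 0.07, -0.35 ± 0.10 and -0.24 ± 0.06).

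The fat effect was last taken within each protein level and compared between them. At 1% protein edgeR's quasi-likelihood test called 0 of 16318 genes, with 2655 at an unadjusted p under 0.05 (16.3%), while DESeq2 called 128 and the likelihood ratio test 165. At 2.5% protein 0 passed, with 567 at an unadjusted p under 0.05 (3.47%), 2 in DESeq2 and 3 in the likelihood ratio test. The difference between both effects was called for 0 genes, with 1277 at an unadjusted p under 0.05 (7.83%), 1 in DESeq2 and 2 in the likelihood ratio test. At 1% protein the replicates of 20% fat differed more in their mitochondrial share (1.78% and 3.20%) than those of the other 3 diets. When replicate 1 of 20% fat with 1% protein was left out, so that only the cortex-marker library stood for that diet, the count at 1% protein became 3725 and that of the difference 1619. Leaving out replicate 1 of 60% fat with 1% protein gave 1 call at 1% protein, and leaving out replicate 1 of 20% fat with 2.5% protein gave 13 at 2.5% protein and 6 for the difference between low and higher protein.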

How the data were processed

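The authors' deposited table holds raw counts for 47069 genes in 16 libraries, without normalization. Per the submitters' processing notes, the build was GRCm38 and the tools included HISAT2 2.1.0, featureCounts and SAMtools 1.2. The strand setting was not given in the sources used here, and a gene and its antisense neighbour may share reads. The gene length in the table equalled the whole genomic span for 85.5% of 46488 identifiers matched to the annotation, so a count can include introns and overlapping genes. Among further genes named, Nr1d1 overlaps the coding gene Thra, Sult1a1 overlaps Sgf29 and Gli1 overlaps Arhgap9. Pmch overlaps Parpbp, Dnaja1 overlaps Smu1 and Mtor overlaps Angptl7.

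Counts were filtered with edgeR's filterByExpr (minimum count 10), with libraries grouped by diet, and scaled with TMM. They were tested with edgeR 4.0.16 (R 4.3.3) by the quasi-likelihood F test with Benjamini-Hochberg adjustment over all genes at 0.05. The main model held protein level and fat. Effects within a protein level used the 4 diets as groups, and the difference from 5% and 20% protein used all 16 libraries and 8 diets. CPM values are TMM-scaled (prior count 2 on the log2 scale). No library was identical to another of its diet. No model but an alternative held the replicate number as a block. Alternatives were DESeq2 1.42.0, the likelihood ratio test, median-ratio scaling, other filters, the replicate block, covariates, removal of a length trend, all 16 libraries and leaving out each library. The steps were tested on simulated data.

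Lists were described by counts and medians, with no list test. Named genes were the called genes with a mean of at least 1 CPM, filled to 10 in each direction by smallest p, up to 4 genes of each of 33 lists (2 where none passed) and fixed appetite genes. Further list members, the chaperones in full among them, and called genes under 1 CPM were named after their values were seen. The comparison and the lists were chosen with earlier results of these data known.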

Additional observations from a re-analysis of the deposited data

Results flagged for a closer look

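In 11 of 232 groups of 4 libraries (4.74%), the highest or lowest value stood far from the other 3 by Dixon's ratio, where chance gives about 1 in 20. That ratio is the gap to the nearest library over the whole range. The groups were the log2 CPM of a gene at a fat level, and also the mitochondrial share and the cortical marker level at each fat level. All 11 were genes. At 60% fat the low library was replicate 1 with 1% protein for Cryab (ratio 0.888) and Insig1 (0.894) and replicate 2 with 2.5% protein for Hspa1a (0.851). Replicate 2 with 1% protein was high for Btg2 (0.868) and for Cacng7 (1.0), which had no count in the other 3. At 20% fat the cortex-marker library with 1% protein was low for C1qa (0.909), Hdc (0.973) and Timm44 (0.884) and high for Lcn2 (0.871). Replicate 1 of 20% fat with 1% protein was high for Phgdh (0.933), and the cortex-marker library with 2.5% protein was high for Vip (0.837). The rise of Cryab at 60% fat includes its low library, and the values of Vip, Lcn2 and Timm44 at 20% fat include a library that carries cortex markers.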

How the results depend on the processing

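With all 8 libraries the count of called genes was 0 in 15 of 19 alternatives, all 8 that left out a library among them, and became 16 (DESeq2), 29 (likelihood ratio test) or 1 with either the cortical marker level or the mitochondrial share as covariate. Without the cortex-marker libraries the 10 became 16 (DESeq2), 91 (likelihood ratio test), 1 without a low-count filter, 0 with at least 1 CPM in at least 4 libraries, 2 with the replicate block, 1 with 14 libraries fitted and 1 to 22 when a library was left out (for 60% fat, 22 and 4 without the first and the second library at 1% protein, 1 and 2 without those at 2.5% protein, and 2 without either remaining 20% fat library). Where a 20% fat library is left out there, 1 library stands for that fat level and is assumed to vary like the others. At 1% protein the 0 became 128 (DESeq2), 165 (likelihood ratio test) and 0 to 3725 when a library was left out. At 2.5% protein it became 2, 3 and 0 to 13, and for the difference between both levels 1, 2 and 0 to 1619. The difference between low and higher protein gave 0 to 6 when a library was left out and 0 otherwise, and the fat effect at 5% and 20% protein gave 0 in all 23. The cause of these changes was not tested.

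The labels do not say that a replicate number pairs libraries, and not every pair of diets passed the limit of 0.1: the correlation of replicate differences between diets ran from -0.051 to 0.244, above 0.1 in 3 of 6 pairs of diets. The replicate block gave 0 calls with all 8 libraries, where there were 0 without it, and lowered the 10 calls without the cortex-marker libraries to 2. The number of chaperone genes with an unadjusted p under 0.05, an alternative chosen after seeing the data, ran from 10 to 14 over 19 alternatives with all 8 libraries and from 9 to 15 over 15 without the cortex-marker libraries, with medians of 0.14 to 0.20 and 0.14 to 0.21. No named gene reversed after being called. Genes with counts at or near 0 in whole groups (Cacng7, Coro1b, Bpifa1 and Ppp1ca) are given no fold change.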

Other observations

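Of 23 genes of antigen presentation and the interferon response, none had an unadjusted p under 0.05 with all 8 libraries, and the median was 0.02. Without the cortex-marker libraries 6 of 23 stood higher at 60% fat at that level, where 5.13% of all genes did, and none lower (median 0.18), among them Cd74 (0.82), the invariant chain of class II molecules, H2-Aa (1.27), H2-Eb1 (0.84), Ifi27 (0.32) and Bst2 (0.45), and none passed after adjustment. Cd74, H2-Aa and H2-Eb1 averaged under 6 CPM. Clock genes gave values in both directions: Per2 stood at 41.7, 44.4, 39.8 and 35.6 CPM at 60% fat against 44.9, 46.8, 46.8 and 45.4 CPM at 20% fat, without overlap (-0.19 ± 0.07), and Nr1d1, the repressor Rev-erb alpha, differed by 0.28 ± 0.11, while the median of 17 clock genes was 0.02. The labels give no time of day. Ptgs2, the inducible cyclooxygenase of inflammation, stood at 0.506, 0.225, 0.649 and 0.597 CPM at 60% fat against 0.718, 2.98, 0.807 and 4.84 CPM at 20% fat, where both high values belong to the cortex-marker libraries.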
